A study of Mus musculus with 7 samples.

Results

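Chemokine ligands are the small secreted proteins that direct the migration of leukocytes and other cells, and their transcripts were followed here in cultured heart cells and in whole hearts of mice. The members were all genes of the array whose name is Ccl, Cxcl, Cx3cl or Xcl followed by a number and at most 1 letter. This rule took 35 of 34792 gene names, measured by 47 probes. A probe counted as measured where the scanner program marked it as well above background. By that mark 31 of the 35 members were measured on at least 1 of the 7 arrays, 29 on at least 1 array of cultured cells, and 14 on all 7 arrays.

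Cardiac mesenchymal progenitors (CMPs) are adherent stromal cells grown out of heart tissue. They were derived from adult C57BL/6 mice and cultured on collagen I, with 10% serum and with basic fibroblast growth factor at 40 ng/ml. Postmortem CMPs came from ventricular tissue (1 array) and atrial tissue (1 array) kept for 24 h at 4 °C after death, and living CMPs from ventricular (1 array) and atrial tissue (1 array) of living mice. Whole hearts served as positive controls: purchased total RNA of adult mouse heart (1 array; strain and age are not given in the sources used here) and C57BL/6 fetal heart of embryonic day 16.5. One fetal array was of mice of the line C57BL/6-Tg(Myh6-EGFP)MG2, in which the cardiomyocyte promoter of Myh6 drives a green fluorescent protein, and the other of wild-type mice. Each source state and chamber, and each fetal genotype, is thus 1 array. The labels do not say whether the atrial and ventricular cultures of a source state came from the same animals. Each p-value of the fit with group and chamber rests on 2 spreads: that between the wild-type and transgenic fetal arrays, and the disagreement of the atrial and ventricular pairs of CMPs. It does not measure the spread between repeated cultures or animals.

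Chemokines bind receptors with 7 membrane passes on the target cell and are held on the extracellular matrix, which gives migrating cells a gradient to follow. CXC ligands with a Glu-Leu-Arg motif before the first cysteines attract neutrophils through Cxcr2, and the CC ligands of the monocyte chemoattractant group attract monocytes through Ccr2. Most of these inflammatory ligands are induced by tumour necrosis factor and interleukin 1 through the transcription factor NF-kappa B, whereas Cxcl12 is made constitutively by stromal cells and retains progenitor cells through Cxcr4. In the heart, fibroblasts and other stromal cells are known sources of both kinds after injury.

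The results turn on the neutrophil-attracting CXC ligands, so the sequences upstream of 3 of them are given together with Cxcl10, an interferon-inducible ligand, and Cx3cl1, which stood the other way in the cultures. RefSeq promoter sequences (build GRCm38.p6) were matched by symbol for 24 of the 35 members. The other members, Cxcl5, Ccl2 and Ccl7 among them, had no promoter entry and were not searched for motifs. Each line gives the bases that end just before the transcription start, 5′ to 3′ on the strand of the gene, and capitals mark matches to the NF-kappa B consensus on either strand, with overlapping matches merged.
Cxcl1, chr5:90891125-90891244, plus strand: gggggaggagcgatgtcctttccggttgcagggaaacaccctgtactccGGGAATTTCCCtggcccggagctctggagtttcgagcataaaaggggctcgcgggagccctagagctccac
Cxcl2, chr5:90903779-90903898, plus strand: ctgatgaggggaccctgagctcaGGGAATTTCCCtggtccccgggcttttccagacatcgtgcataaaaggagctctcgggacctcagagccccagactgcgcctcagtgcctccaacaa
Cxcl3, chr5:90785981-90786100, plus strand: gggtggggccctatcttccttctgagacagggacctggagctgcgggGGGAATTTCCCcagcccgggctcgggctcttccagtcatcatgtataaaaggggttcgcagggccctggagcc
Cxcl10, chr5:92348890-92349059, minus strand: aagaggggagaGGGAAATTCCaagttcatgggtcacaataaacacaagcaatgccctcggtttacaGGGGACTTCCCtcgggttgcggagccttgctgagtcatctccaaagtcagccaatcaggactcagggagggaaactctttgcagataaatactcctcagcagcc
Cx3cl1, chr8:94772060-94772179, plus strand: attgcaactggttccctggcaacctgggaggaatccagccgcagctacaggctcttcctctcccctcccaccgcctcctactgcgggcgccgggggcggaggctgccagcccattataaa

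The letters GGGAATTTCC, the match upstream of Cxcl1, lay at positions -71 to -62 of Cxcl1, -97 to -88 of Cxcl2 and -73 to -64 of Cxcl3, counted back from the start. Searched on both strands in the 250 bases before the start, this motif was held by 28 of 32851 RefSeq promoters (0.0852%). It is one form of the NF-kappa B consensus, which 2382 promoters held (7.25%). Counted by gene, 2225 of 27025 genes held the consensus (8.23%), and 7 of the 24 members did (Ccl1, Ccl9, Ccl20, Cxcl1, Cxcl2, Cxcl3 and Cxcl10). Cxcl10 had matches at -159 to -150 and -104 to -95, and Cx3cl1 had none in these 250 bases. Cxcl14 and Ccl19, which like Cxcl1 had lower fitted values in postmortem CMPs, had none either. Whether matches go with the array values was not tested. The first 3 genes are close relatives that lie near each other on chromosome 5, so their upstream sequences share descent. The motif was chosen with these sequences in view, and a match describes letters only.

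Values are log2 signals relative to each array's 75th percentile, so that 0 is the brightness of the 75th percentile itself. The share of all probes marked well above background was 46.5% to 52.5% per array, and saturated spots numbered 0. The CMP arrays lay in the first row of the slide and the heart arrays in the second, so position and sample type cannot be told apart. The labelled cell type was checked against markers: all 9 mesenchymal stromal markers were measured on every CMP array, with a summed linear level of 1860 to 2150, against 270 in adult heart and 577 to 639 in fetal hearts. The summed level of the 7 cardiomyocyte markers was 1.35 to 17.3 on CMP arrays and 2540 to 5810 on heart arrays. Of the 11 leukocyte markers, 7 were well above background on all 4 CMP arrays, among them the myeloid genes Itgam (5.44 to 6.01) and Csf1r (1.61 to 2.29). The macrophage gene Emr1 was not well above background on any CMP array, and the pan-leukocyte gene Ptprc was so only on the living ventricular array. The summed leukocyte level was 51 (ventricular) and 74.6 (atrial) in postmortem CMPs, 74.2 (ventricular) and 73.4 (atrial) in living CMPs, 109 in adult heart and 29.9 to 36.3 in fetal hearts.

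**Figure D1:**
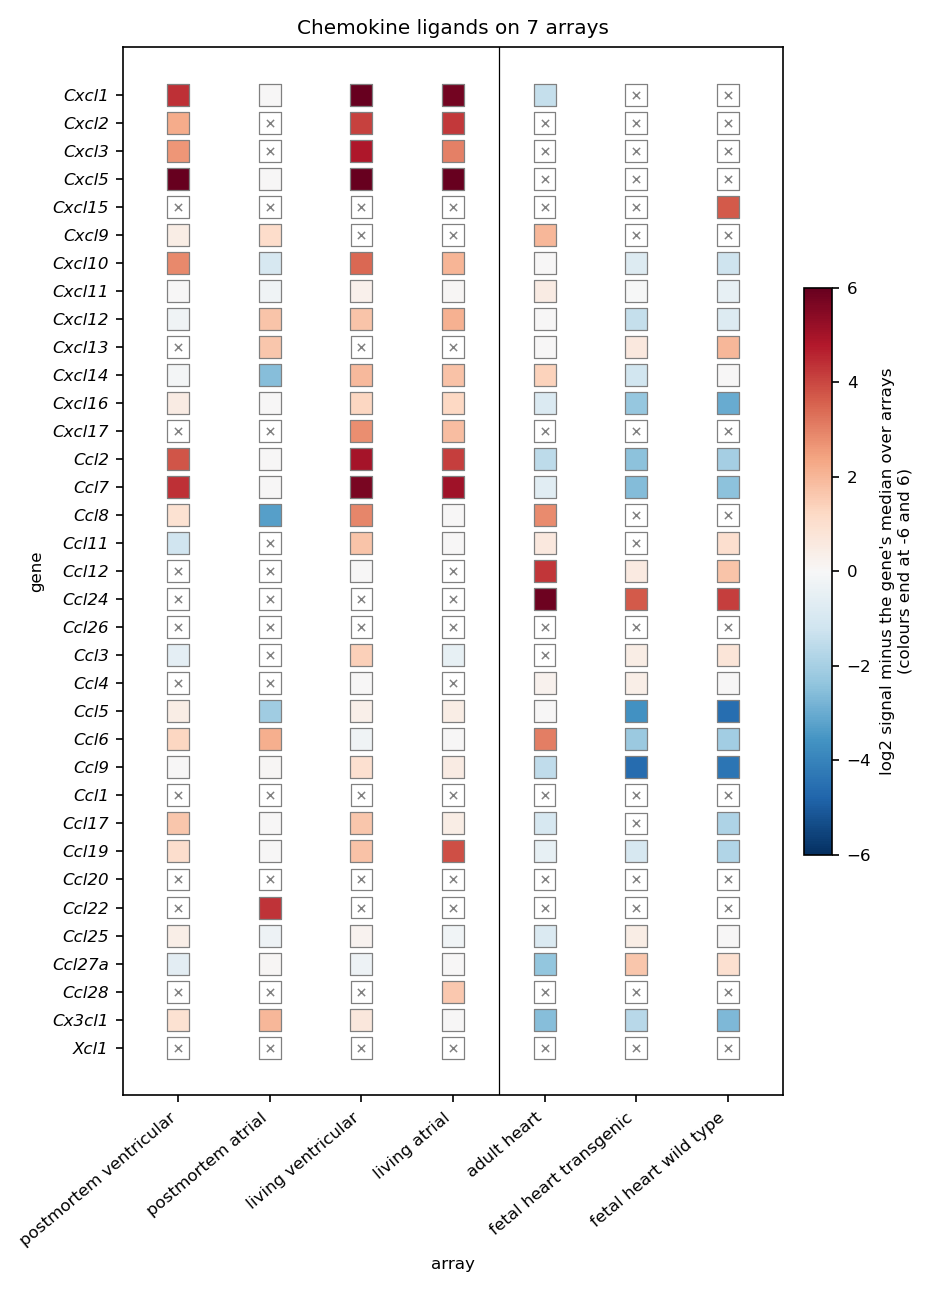
Each row is a chemokine ligand and each column 1 of the 7 arrays. Colour shows the log2 signal minus the gene's own median over the 7 arrays, ending at -6 and 6, and open squares with a cross mark signals not well above background. Cxcl1, Cxcl5, Ccl2 and Ccl7 are bright on 3 CMP arrays and dimmer on the postmortem atrial array, and Ccl12 and Ccl24 are bright in the hearts.

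Whether chemokine transcripts differ in CMPs grown from stored tissue was the first comparison, of 2 postmortem with 2 living arrays. Most ligands were dimmer in postmortem CMPs, by far the most on the postmortem atrial array, but no member passed the test. Of the 35 members 24 could be tested, and 0 were called at an adjusted p under 0.05 (limma, Benjamini-Hochberg over all genes tested). Over all genes 20 of 19011 were called (0.105%). At an unadjusted p under 0.05 stood 17 of the 24, against 2100 of all genes (11%). The median difference was -2.03 over the tested members and 0.01 over all genes tested; over the members it was -1.07 with normexp background correction and -1.15 with no filter on dim probes. Because a gene could enter the test on 1 bright side alone, the 18 members measured on all 4 CMP arrays were also read alone: 15 were lower and 3 higher, with a median of -1.21. In a bulk sample, fewer cells that make a transcript and less transcript per cell cannot be told apart.

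The neutrophil-attracting ligands had the widest range. Cxcl5, which recruits neutrophils through Cxcr2, had log2 signals of 6.65 (ventricular) and -1.91 (atrial) in postmortem CMPs, against 8.67 (ventricular) and 8.33 (atrial) in living CMPs. The postmortem arrays lay below both living arrays, and the atrial one far below all others. The fitted difference was -6.13 ± 1.77 (SE, 2 arrays each, adjusted p = 0.338), and the ventricular pair alone differed by -2.02. Cxcl1, the best-known mouse counterpart of human interleukin 8, had 4.29 (ventricular) and -0.11 (atrial) in postmortem CMPs, against 6.35 (ventricular) and 5.69 (atrial) in living CMPs. Its difference was -3.93 ± 0.84 (adjusted p = 0.258), and the ventricular pair alone differed by -2.06. Cxcl2, made mainly by activated macrophages and stroma, had -3.20 (ventricular) and -6.13 (atrial) in postmortem CMPs, against -1.34 (ventricular) and -1.17 (atrial) in living CMPs. Cxcl3 had -2.70 (ventricular) and -6.10 (atrial) in postmortem CMPs, against -0.53 (ventricular) and -2.33 (atrial) in living CMPs. Both were not well above background on the postmortem atrial array, and their postmortem and living arrays did not overlap. The differences were -3.41 ± 0.78 for Cxcl2 and -2.97 ± 0.54 for Cxcl3 (adjusted p = 0.265 and 0.211). Cxcl15, the lung member of the group, was not well above background on any CMP array.

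Most of the monocyte-attracting ligands and eotaxins lie in one cluster on chromosome 11. There the probes of Ccl2 (chr11:81850650-81850709), Ccl7 (chr11:81860656-81860715), Ccl11 (chr11:81876072-81876131), Ccl12 (chr11:81916764-81916823) and Ccl8 (chr11:81930108-81930167) follow each other in build mm9. The probes of Ccl24 and Ccl26 lie on chromosome 5. Ccl2, the main attractant of Ccr2-bearing monocytes, had 7.17 (ventricular) and 3.41 (atrial) in postmortem CMPs, against 8.41 (ventricular) and 7.58 (atrial) in living CMPs. Ccl7, a second Ccr2 ligand, had 5.65 (ventricular) and 1.26 (atrial) in postmortem CMPs, against 6.94 (ventricular) and 6.34 (atrial) in living CMPs. In both genes the 2 postmortem arrays stood below the 2 living ones. The differences were -2.71 ± 0.65 for Ccl2 and -3.18 ± 0.82 for Ccl7 (adjusted p = 0.287 and 0.308), and the ventricular pair alone differed by -1.24 and -1.29. Ccl11 (eotaxin, an attractant of eosinophils) had -3.77 (ventricular) and -6.33 (atrial) in postmortem CMPs, against -0.85 (ventricular) and -2.56 (atrial) in living CMPs. The groups did not overlap, the postmortem atrial value was not well above background, and the difference was -3.35 ± 1.19 (adjusted p = 0.407). Ccl8 had 0.83 (ventricular) and -3.42 (atrial) in postmortem CMPs, against 2.83 (ventricular) and -0.10 (atrial) in living CMPs. Here the arrays overlapped between the groups, both atrial arrays being low, and the difference was -2.66 ± 0.48 (adjusted p = 0.214).

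Among the other CXC ligands, Cxcl14, a constitutive attractant of monocytes and dendritic cells, had 1.26 (ventricular) and -1.19 (atrial) in postmortem CMPs, against 3.32 (ventricular) and 3.12 (atrial) in living CMPs. Its living arrays were alike and both postmortem arrays lay below them, with a difference of -3.18 ± 0.62 (adjusted p = 0.234). Cxcl16, the transmembrane ligand of Cxcr6, had 1.69 (ventricular) and 1.21 (atrial) in postmortem CMPs, against 2.49 (ventricular) and 2.45 (atrial) in living CMPs, a difference of -1.03 ± 0.31 (adjusted p = 0.351). Cxcl17 was not well above background in either postmortem culture but was so in both living ones, and its signal in postmortem CMPs was thus at least 2.24-fold lower (adjusted p = 0.202). Of the interferon-inducible ligands, Cxcl10, an attractant of T cells, had 1.67 (ventricular) and -2.18 (atrial) in postmortem CMPs, against 2.24 (ventricular) and 0.83 (atrial) in living CMPs. These values overlapped between the groups, and the difference was -1.79 ± 0.59 (adjusted p = 0.374).

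The macrophage-inflammatory CC ligands and their relatives, which attract macrophages and T cells, did not all run the same way. Ccl3 had -3.77 (ventricular) and -6.20 (atrial, not well above background) in postmortem CMPs, against -1.74 (ventricular) and -3.66 (atrial) in living CMPs, a difference of -2.29 ± 0.38 (adjusted p = 0.194). Ccl5 had 1.18 (ventricular) and -1.40 (atrial) in postmortem CMPs, against 1.12 (ventricular) and 1.19 (atrial) in living CMPs. For Ccl5 only the postmortem atrial array stood apart, and the difference was -1.27 ± 0.68 (adjusted p = 0.570). Ccl9, a Ccr1 ligand of rodents, had 3.79 (ventricular) and 3.88 (atrial) in postmortem CMPs, against 4.76 (ventricular) and 4.26 (atrial) in living CMPs, a difference of -0.67 ± 0.22 (adjusted p = 0.374). Its close relative Ccl6 stood the other way, at 1.70 (ventricular) and 2.59 (atrial) in postmortem CMPs, against 0.15 (ventricular) and 0.39 (atrial) in living CMPs. Both postmortem arrays lay above both living arrays, and the difference of 1.87 ± 0.25 had the lowest adjusted p of the tested members in this comparison (0.129).

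Another ligand was higher without passing the test. Cx3cl1 (fractalkine), a membrane-bound ligand that tethers monocytes and lymphocytes bearing Cx3cr1, had 4.88 (ventricular) and 5.97 (atrial) in postmortem CMPs, against 4.62 (ventricular) and 3.96 (atrial) in living CMPs. The groups did not overlap, although the ventricular pair differed by only 0.26, and the fitted difference was 1.13 ± 0.51 (adjusted p = 0.503). Ccl19, a Ccr7 ligand that guides dendritic cells and T cells, had -0.58 (ventricular) and -1.65 (atrial) in postmortem CMPs, against 0.09 (ventricular) and 2.22 (atrial) in living CMPs. Both postmortem arrays lay below both living arrays, with a difference of -2.27 ± 0.77 (adjusted p = 0.389). Ccl17, a Ccr4 ligand, had -0.33 (ventricular) and -1.98 (atrial) in postmortem CMPs, against -0.31 (ventricular) and -1.53 (atrial) in living CMPs, and its groups overlapped. Ccl25 and Ccl27a, best known from gut and skin, differed by 0.07 ± 0.25 and -0.12 ± 0.28 (adjusted p = 0.962 and 0.928).

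Within each chamber, 18 of the 24 tested members were lower in the postmortem culture in both pairs and 3 were higher in both, against 30.2% and 33.6% of all genes tested. A difference of at least -1 (a halving) in both pairs was seen for 11 members, against 1.72% of all genes tested. In the ventricular pair alone it was seen for 12 (3.49% of all genes) and in the atrial pair alone for 15 (9.1%). The median difference of the tested members was -1.10 for the ventricular and -2.56 for the atrial cultures, against -0.01 and 0.05 over all genes. Arrays of the groups did not overlap for 14 members lower in postmortem CMPs (20.1% of all genes) and 3 higher (23.9%). Ranks of the CMP arrays were not counted over all genes, and they include signals not well above background. The postmortem atrial array was the lowest CMP array for 20 of the 29 members measured on a CMP array and the highest for 6. Leaving it out gave a median of -1.11 over the members then tested. With the chamber term, that fit compares the ventricular pair alone, so it adds nothing to the ventricular differences above.

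**Figure D2:**
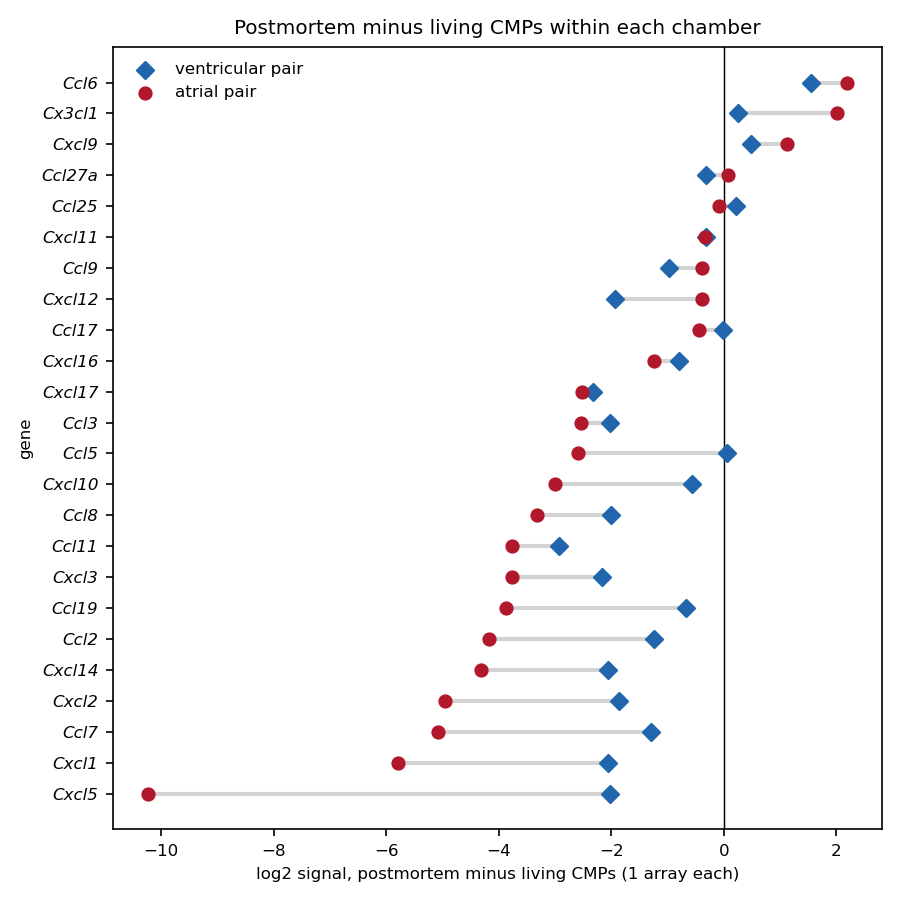
For each tested ligand, the diamond is the postmortem minus living difference in log2 signal in the ventricular pair and the circle that in the atrial pair, 1 array each. Most points lie left of 0, and the atrial difference is larger in size for 20 of 24 genes, most of all for Cxcl5 (-2.02 ventricular, -10.24 atrial).

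The atrial and ventricular differences were also set against each other. Each of the 4 cultures is 1 array, so no spread between cultures stands behind this contrast and it does not show that the chambers differ. A positive value means that the postmortem signal fell less, relative to living CMPs, in the ventricular than in the atrial pair. The values were 8.22 for Cxcl5, 3.79 for Ccl7, 3.74 for Cxcl1, 3.20 for Ccl19, 2.93 for Ccl2, 2.65 for Ccl5 and 2.25 for Cxcl14, and -1.76 for Cx3cl1, which was higher by more in the atrial pair.

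An interaction term, whose only residual degree of freedom (1) is the pair of fetal hearts, was past the threshold for these 8 of 24 tested members, 7 higher and 1 lower, against 2.41% of all genes (1.63% higher and 0.778% lower). After quantile normalization 0 members were past it (0 of all genes, 1042 at an unadjusted p under 0.05, limma), and without a mean-variance trend 3. Cx3cl1 lost its call in 5 of 8 alternatives. Markers of other cells moved with the same array: the endothelial genes Pecam1, Cdh5, Tek and Esam were lowest on the postmortem atrial array among the CMPs. Of 5 endothelial markers 3 were past the same threshold. The endothelial marker Kdr was lowest elsewhere, at 2.71 (ventricular) and 3.15 (atrial) in postmortem CMPs, against 3.44 (ventricular) and 3.37 (atrial) in living CMPs. The summed endothelial level, to which Kdr gave the most on each CMP array, was 10.3 (ventricular) and 9.61 (atrial) in postmortem CMPs. In living CMPs it was 12.8 (ventricular) and 16.2 (atrial). The part of these cells in the chemokine values was not tested.

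**Figure D3:**
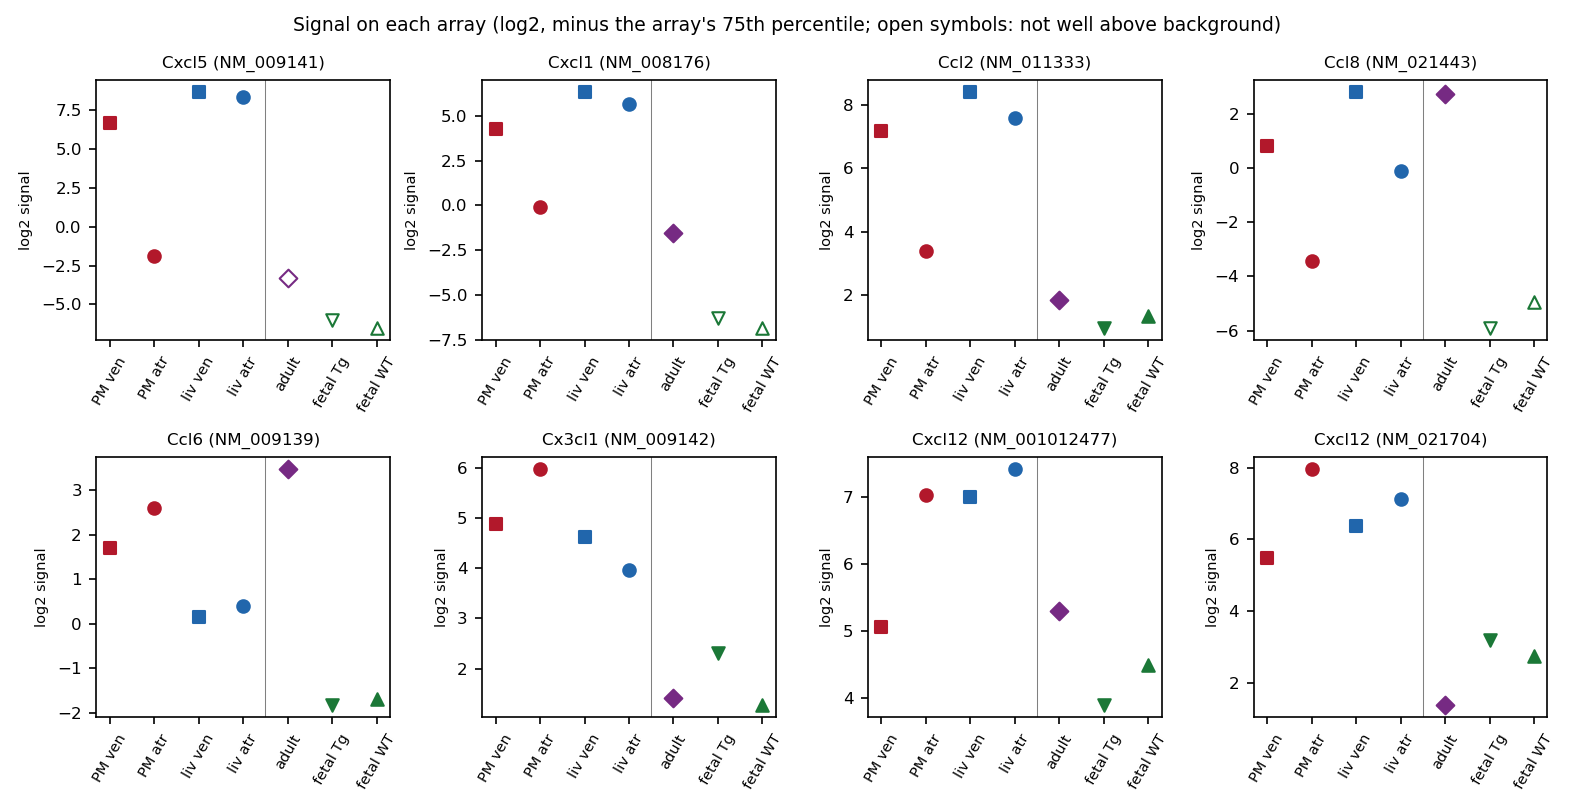
Each panel shows the log2 signal of 1 probe on the 7 arrays, with filled symbols where it was well above background. PM is postmortem, ven ventricular, atr atrial, liv living, WT wild type and Tg transgenic. Cxcl5, Cxcl1 and Ccl2 drop on the postmortem atrial array, Ccl6 and Cx3cl1 are highest there among the CMPs, and adult heart lies above the fetal hearts for one Cxcl12 probe (5.30) and below them for the other (1.37).

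The chamber of origin was compared over the same 4 arrays, which the comparison shares with the one above. Ventricular CMPs had more of the monocyte-attracting and neutrophil-attracting transcripts than atrial CMPs by fitted value, again without a member passing the test. Of 22 tested members 0 were called, as were 0 of 18910 genes (0%, limma), with 10 members and 1561 genes (8.25%) at an unadjusted p under 0.05. The median was 1.35 over the tested members and 0.03 over all genes. In postmortem CMPs the ventricular array exceeded the atrial by at least 1 for 14 of these members (8.93% of all genes), and in living CMPs for 6 (2.56% of all genes). The median was 2.44 in the postmortem pair and 0.46 in the living pair, so the value over both depends on the postmortem atrial array.

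Ventricular exceeded atrial CMPs in both pairs for 14 of these members (35.2% of all genes), and the arrays of the chambers did not overlap for 4 higher and 2 lower members (21.6% and 14.9% of all genes). A difference of at least 1 in both pairs was seen for 6 members: Ccl3, Ccl8, Ccl11, Ccl17, Cxcl3 and Cxcl10, against 1.34% of all genes tested. Ccl8 separated the chambers fully, with 2.83 (living) and 0.83 (postmortem) in ventricular CMPs, against -0.10 (living) and -3.42 (postmortem) in atrial CMPs. Its difference of 3.59 ± 0.48 had an adjusted p of 0.148, and the living pair alone differed by 2.94. Cxcl10 also separated the chambers, at 2.24 (living) and 1.67 (postmortem) in ventricular CMPs, against 0.83 (living) and -2.18 (postmortem) in atrial CMPs. Its difference was 2.62 ± 0.59 (adjusted p = 0.317), and the living pair alone differed by 1.41. Cxcl3 differed by 2.60 ± 0.54 (adjusted p = 0.290) and Ccl3 by 2.17 ± 0.38 (adjusted p = 0.210). By contrast Cxcl5 (4.45 ± 1.77, adjusted p = 0.600), Cxcl1 (2.53 ± 0.84, adjusted p = 0.521) and Ccl7 (2.50 ± 0.82, adjusted p = 0.517) differed in the living pair by 0.34, 0.66 and 0.60. Cxcl12 ran the other way, lower in ventricular CMPs (-1.19 ± 0.41, adjusted p = 0.538).

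Against whole hearts, CMPs carried far more Cxcl1, Cxcl5, Ccl2 and Ccl7 by the mean of their 4 arrays, and less Ccl4, Ccl12 and Ccl24. Against fetal heart 20 of 23 tested members were called, 14 higher and 6 lower in CMPs, where 48% of all genes tested were called (22.8% higher and 25.2% lower). Against adult heart 16 of 24 were called, 10 higher and 6 lower, where 49.3% of all genes were (24.6% higher and 24.6% lower). Both comparisons use the same 4 CMP arrays, and adult heart is 1 array whose spread is borrowed from the others. Of the members measured on every array of both sides, 14 were left against fetal heart, with 10 called higher and 1 lower, and 17 against adult heart, with 9 called higher and 2 lower. When all genes were filtered in this way, 4208 of 16834 were called higher and 3460 lower against fetal heart. Against adult heart 4244 of 16319 were called higher and 3078 lower.

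Cxcl5 was not well above background on any heart array, where its signal was -3.31 in adult heart, -5.97 in transgenic and -6.52 in wild-type fetal heart, while all 4 CMP arrays measured it. It was at least 868-fold higher in CMPs than in fetal heart (adjusted p = 0.00241) and at least 430-fold higher than in adult heart (adjusted p = 0.0154), although that second call was lost without either fetal array (adjusted p = 0.0503). These folds are set on the mean of the 4 CMP arrays (5.44) and do not bound each culture. The postmortem atrial array (-1.91) stood far nearer to adult heart than that mean. Cxcl1 had -1.56 in adult heart and was not well above background in the fetal hearts (-6.29 transgenic, -6.85 wild type). It was at least 333-fold higher in CMPs than in fetal heart (adjusted p = 0.000365), and higher than in adult heart by 5.62 ± 0.94 (adjusted p = 0.00565). For Cxcl1 too the postmortem atrial array (-0.11) was the CMP array nearest to adult heart. Cxcl2 and Cxcl3 were not well above background on any heart array and, being dim on the postmortem atrial array as well, were not tested.

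Ccl2 had 1.86 in adult heart, 0.97 in transgenic and 1.35 in wild-type fetal heart, and every CMP array exceeded these values. It was higher in CMPs by 5.48 ± 0.56 than in fetal heart (adjusted p = 0.00113) and by 4.79 ± 0.73 than in adult heart (adjusted p = 0.00418). Ccl7 had 0.60 in adult heart, -1.35 in transgenic and -1.19 in wild-type fetal heart, and was higher in CMPs by 6.32 ± 0.71 and by 4.44 ± 0.92 (adjusted p = 0.00152 and 0.0115). In these genes even the lowest CMP array, the postmortem atrial one, lay above every heart array. It had 3.41 for Ccl2 and 1.26 for Ccl7, against 1.86 and 0.60 in adult heart. Cx3cl1 had 1.41 in adult heart, 2.31 in transgenic and 1.27 in wild-type fetal heart, and was higher in CMPs by 3.07 ± 0.44 than in fetal heart and by 3.44 ± 0.57 than in adult heart (adjusted p = 0.00334 and 0.00552). Ccl9 had 2.28 in adult heart, -0.84 in transgenic and -0.58 in wild-type fetal heart, and was higher in CMPs by 4.88 ± 0.19 and by 1.89 ± 0.25 (adjusted p = 0.000107 and 0.00257).

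Several ligands were higher in CMPs by smaller amounts. Cxcl16 had 0.34 in adult heart, -1.09 in transgenic and -1.80 in wild-type fetal heart, and was higher in CMPs by 3.40 ± 0.27 than in fetal heart and by 1.62 ± 0.34 than in adult heart (adjusted p = 0.000515 and 0.0126). Ccl17 had -2.97 in adult heart and -3.85 in wild-type fetal heart, with -4.06 and no signal well above background in transgenic fetal heart. It was higher in CMPs by 2.92 ± 0.29 and 1.93 ± 0.37 (adjusted p = 0.000988 and 0.00901). Cxcl10 had -1.19 in adult heart, -1.99 in transgenic and -2.45 in wild-type fetal heart. Its arrays overlapped with those of CMPs, it was called against fetal heart (2.86 ± 0.51, adjusted p = 0.00683; 0.0635 without the wild-type fetal array, and 0.78 ± 0.62 with an adjusted p of 0.360 for the mean of its probes), and it was not called against adult heart (1.83 ± 0.66, adjusted p = 0.0651). Ccl5 had 0.75 in adult heart, -2.86 in transgenic and -3.83 in wild-type fetal heart. It was called higher in CMPs than in fetal heart (3.87 ± 0.59, adjusted p = 0.00399), while its difference from adult heart was -0.23 ± 0.76 (adjusted p = 0.823).

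**Figure D4:**
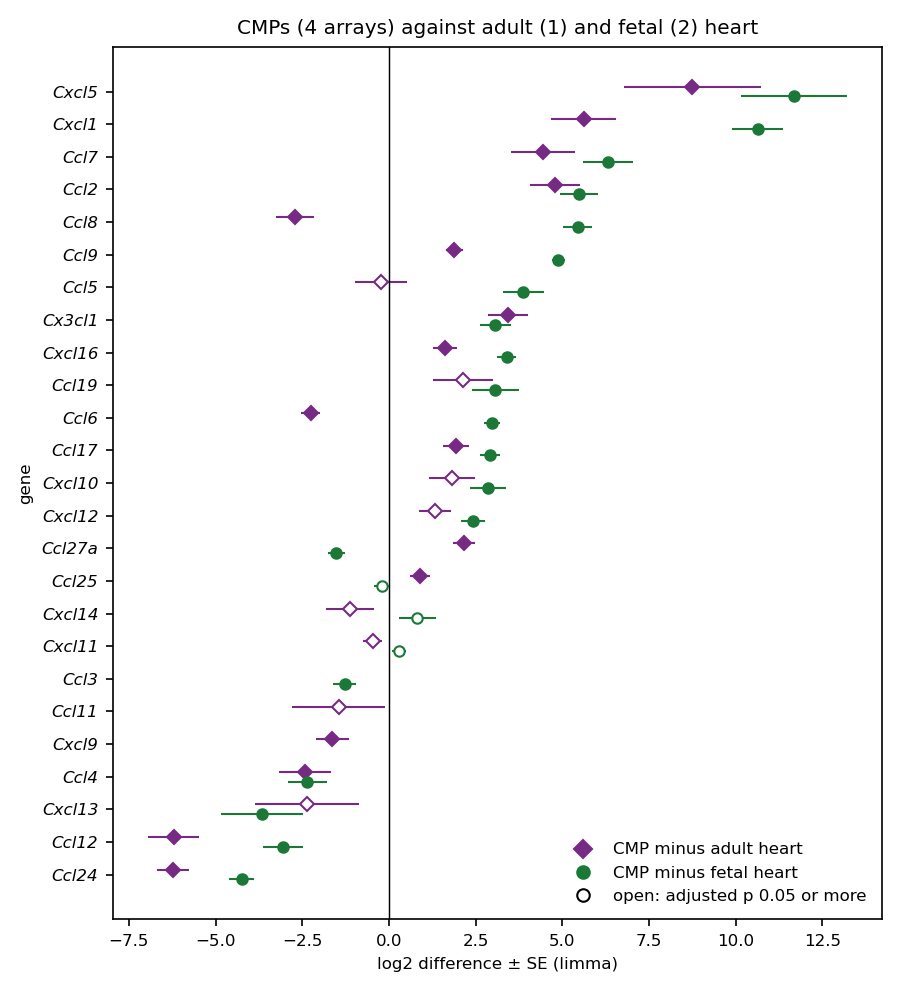
Points are log2 differences of CMPs (4 arrays) from adult heart (1 array, diamonds) and from fetal heart (2 arrays, circles) for each tested ligand, with the standard error of the limma fit as bars. Filled points had an adjusted p under 0.05. Cxcl5 and Cxcl1 lie farthest to the right and Ccl24 and Ccl12 farthest to the left, and of the ligands with both points filled, Ccl8, Ccl6 and Ccl27a lie on opposite sides of 0.

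Of the 7 monocyte-attracting and eotaxin ligands, 2 of 6 tested were called higher and 3 lower in CMPs than in adult heart (24.6% of all genes in each direction). Against fetal heart 3 of 5 were called higher and 2 lower (22.8% higher and 25.2% lower of all genes). Ccl24 (eotaxin-2) was not well above background on any CMP array and had 0.23 in adult heart, -1.97 in transgenic and -1.53 in wild-type fetal heart. It was at least 21.1-fold lower in CMPs than in adult heart (adjusted p = 0.000612) and at least 5.34-fold lower than in fetal heart (adjusted p = 0.000665). Ccl12, a mouse Ccr2 ligand, was measured among the CMPs only on the living ventricular array (-3.20). It had 1.07 in adult heart, -2.68 in transgenic and -1.48 in wild-type fetal heart, and was lower in CMPs by -6.21 ± 0.74 than in adult heart (adjusted p = 0.00196). Against fetal heart Ccl12 differed by -3.06 ± 0.57 (adjusted p = 0.00814; 0.0639 without the wild-type fetal array). Ccl4, an attractant of macrophages and T cells, was likewise measured among the CMPs only on the living ventricular array (-2.93), and had -2.65 in adult heart, -2.53 in transgenic and -2.90 in wild-type fetal heart. It was called lower against both hearts (-2.42 ± 0.74 and -2.35 ± 0.57, adjusted p = 0.0415 and 0.0203), calls that did not hold without either fetal array (0.0826 against adult, 0.0878 and 0.119 against fetal heart). Of 10 tested leukocyte markers, 7 were called lower and 1 higher in CMPs than in adult heart (24.6% of all genes in each direction). Than in fetal heart 4 were lower and 3 higher (25.2% lower and 22.8% higher of all genes). The macrophage genes Cd68, Emr1 and Csf1r were called lower against both hearts, and Itgam (2.43), Cd14 (2.57) and Ly6g (7.82) were called higher against fetal heart. Their part in these ligands was not tested.

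A set of 3 ligands stood on opposite sides of adult and fetal heart. Ccl8 had 2.74 in adult heart, while in fetal heart it was not well above background (-5.91 transgenic, -4.93 wild type). It was at least 20.5-fold higher in CMPs than in fetal heart (adjusted p = 0.000507) and lower than in adult heart by -2.71 ± 0.55 (adjusted p = 0.0106), a call lost without the chamber term (0.244), and the living ventricular array (2.83) reached the adult value. Ccl6 had 3.47 in adult heart, above every CMP array, and -1.83 in transgenic and -1.69 in wild-type fetal heart, below every CMP array. It differed in CMPs by 2.97 ± 0.22 from fetal and by -2.26 ± 0.28 from adult heart (adjusted p = 0.000424 and 0.00217). Ccl27a was the reverse: 1.05 (ventricular) and 1.75 (atrial) in postmortem CMPs, 1.37 (ventricular) and 1.67 (atrial) in living CMPs, -0.70 in adult heart, 3.32 in transgenic and 2.65 in wild-type fetal heart. It was lower in CMPs than in fetal heart by -1.52 ± 0.24 and higher than in adult heart by 2.16 ± 0.32 (adjusted p = 0.00479 and 0.00370).

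Other calls against the hearts were less stable. Ccl3 (-1.28 ± 0.34 against fetal heart, adjusted p = 0.0274) lost its call in 8 of 15 alternative settings, with an adjusted p of 0.872 without both postmortem arrays. Cxcl13, a B cell attractant, was measured among the CMPs only on the postmortem atrial array (-1.03), and had -2.71 in adult heart, -2.07 in transgenic and -0.73 in wild-type fetal heart. Its call against fetal heart (-3.66 ± 1.17, adjusted p = 0.0478) did not hold without either fetal array (0.126 without the transgenic and 0.248 without the wild-type array). Cxcl9, an interferon-inducible ligand, had -2.51 in adult heart against -4.58 to -3.40 on the CMP arrays, 2 of which did not measure it, and its difference (-1.63 ± 0.48, adjusted p = 0.0363) lost its call without any 1 of the 4 CMP arrays (0.0591 to 0.134). Ccl25 stood at 0.40 to 1.10 on CMP arrays and -0.18 in adult heart (0.90 ± 0.28, adjusted p = 0.0454), a call lost in 9 of 16 alternatives. Cxcl14 (0.82 ± 0.53 against fetal and -1.12 ± 0.69 against adult heart), Ccl11 (-1.45 ± 1.34 against adult heart) and Cxcl11 (0.29 ± 0.21 and -0.47 ± 0.27) were not called.

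Between the hearts, 9 of 24 tested members were called higher and 2 lower in adult than in fetal heart, against 37% of all genes called (18.8% higher and 18.2% lower). These are the heart arrays of the comparisons above. Ccl8 was at least 134-fold higher in adult heart (adjusted p = 0.00111). Ccl6 was higher by 5.23 ± 0.30 (adjusted p = 0.000649), Ccl5 by 4.10 ± 0.83 (adjusted p = 0.0157), Ccl12 by 3.15 ± 0.81 (adjusted p = 0.0316), Ccl9 by 2.99 ± 0.27 (adjusted p = 0.00177), Ccl24 by 1.98 ± 0.52 (adjusted p = 0.0336) and Cxcl16 by 1.79 ± 0.38 (adjusted p = 0.0174). Cxcl1 was at least 6.78-fold and Cxcl9 at least 3.51-fold higher in adult heart (adjusted p = 0.0161 and 0.00780), the Cxcl1 call not holding without either fetal array (0.0528 and 0.0747). Without 1 fetal array the calls of Ccl24 (0.0607 and 0.0854), Ccl12 (0.0940 without the transgenic one) and Ccl5 (0.0687 without the wild-type one) were lost too. Ccl27a was lower in adult heart (-3.69 ± 0.35, adjusted p = 0.00194), and so was Ccl25 (-1.11 ± 0.31, adjusted p = 0.0399; 0.0891 without the transgenic fetal array), whose sign turned with the mean of its probes (0.04). All 9 tested leukocyte markers had a higher fitted value in adult heart, 5 of them called, and the part of leukocytes in these ligands was not tested.

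Probes of 1 gene differed for several members. The CXC ligand Cxcl12, which holds progenitor cells through Cxcr4, had a probe annotated to transcript variant 3 (NM_001012477) and a further transcript, and one annotated to variant 1 (NM_021704). The variant 3 probe had 5.06 (ventricular) and 7.03 (atrial) in postmortem CMPs, 6.99 (ventricular) and 7.41 (atrial) in living CMPs, 5.30 in adult heart, 3.89 in transgenic and 4.49 in wild-type fetal heart. The variant 1 probe had 5.48 (ventricular) and 7.96 (atrial) in postmortem CMPs, 6.38 (ventricular) and 7.13 (atrial) in living CMPs, 1.37 in adult heart, 3.19 in transgenic and 2.74 in wild-type fetal heart. On both probes the postmortem ventricular array was the lowest CMP array. Both were called higher in CMPs than in fetal heart when each probe was tested on its own (2.43 ± 0.35 and 3.77 ± 0.36, adjusted p = 0.00278 and 0.000714). Against adult heart the variant 1 probe was higher in CMPs by 5.37 ± 0.46 (adjusted p = 0.000639) and the variant 3 probe by 1.32 ± 0.45 (adjusted p = 0.0534).

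Ccl19 had 3 probes, all higher in CMPs by fitted value than in either heart: the probe used for the gene was higher than in fetal heart by 3.07 ± 0.65 (adjusted p = 0.0116). The others were not well above background in either fetal heart and were at least 23.2-fold and 44.2-fold higher in CMPs (adjusted p = 0.000927 and 0.00110). The call of the gene was lost without either fetal array (0.0593 and 0.108). The 3 probes of Ccl27a were all higher in CMPs than in adult heart, 2 of them by 2.16 ± 0.31 and 2.18 ± 0.29 (adjusted p = 0.00304 and 0.00235). The last was not well above background in adult heart, was at least 11.3-fold higher in CMPs (adjusted p = 0.000244) and shares a stretch of at least 20 bases with a probe of Gm13308. The brighter probe of Cxcl11 ranged over all 7 arrays only between 8.00 and 8.99 and shares at least 20 bases with 7 probes of other gene names, so its level cannot be assigned to Cxcl11. The second Cxcl11 probe, which shares none, lay between 1.96 and 3.05. The second Cxcl9 probe was well above background in adult heart alone (-1.71).

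A last set of members was at or near background. Ccl1, Ccl20, Ccl26 and Xcl1 were not well above background on any array. Ccl22, a Ccr4 ligand of dendritic cells, was measured on the postmortem atrial array alone (-1.88), Ccl28 on the living atrial array alone (-3.02) and Cxcl15 on the wild-type fetal array alone (-2.51). Ccl22 and Cxcl13 thus stood highest on the array where the inflammatory ligands were lowest.

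The receptors of these ligands were mostly dim in the cultures. Of 23 receptor genes 5 to 7 were well above background on a CMP array, 13 in adult heart and 7 to 9 in fetal hearts, and Cxcr2, the receptor of the neutrophil attractants, on none. In CMPs 7 of 13 tested receptors were called lower and 0 higher than in adult heart (24.6% of all genes in each direction), and 3 of 7 lower and 1 higher than in fetal heart (25.2% lower and 22.8% higher of all genes). No receptor was called between postmortem and living CMPs (6 tested) or between the chambers (7 tested), with 1 and 2 at an unadjusted p under 0.05 (limma; 11% and 8.25% of all genes). Cxcr7, a scavenger of Cxcl12, had 0.52 (ventricular) and 4.48 (atrial) in postmortem CMPs, against 1.76 (ventricular) and 1.99 (atrial) in living CMPs.

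Genes that induce chemokines were also read, in a list of 19 that holds transcription factors and NF-kappa B targets and inhibitors as well. In postmortem CMPs 13 of the 14 tested had lower fitted values than in living CMPs, with a median of -0.56, none called and 6 at an unadjusted p under 0.05 (limma; 11% of all genes). Interleukin 6 (Il6), induced with the same ligands, had 3.55 (ventricular) and -0.29 (atrial) in postmortem CMPs, against 5.95 (ventricular) and 5.07 (atrial) in living CMPs. It thus had the order of arrays seen for Cxcl1, with a difference of -3.88 ± 0.70 (adjusted p = 0.206). The NF-kappa B target and inhibitor Tnfaip3 had 0.98 (ventricular) and 0.81 (atrial) in postmortem CMPs, against 2.28 (ventricular) and 2.53 (atrial) in living CMPs, a difference of -1.51 ± 0.23 (adjusted p = 0.178). The inducing cytokines Tnf, Il1a, Il1b, Ifnb1 and Ifng were not well above background on any CMP array. Against fetal heart 14 of 14 tested genes of the list, none of them these cytokines, were called higher in CMPs (22.8% of all genes). Against adult heart 9 of 16 were called higher and 2, Tnf and Il1b, lower (24.6% of all genes in each direction). The platelet chemokine Pf4, outside the naming rule, had 4.58 (ventricular) and 0.98 (atrial) in postmortem CMPs, against 3.96 (ventricular) and 3.65 (atrial) in living CMPs.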

How the data were processed

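The authors deposited a scanner table per array, with linear intensity per spot from Feature Extraction by Agilent (10.7.3.1 is the version per the file headers, and 9.5.3 per the submitters' processing notes); the processed signal is background-subtracted and detrended, per the file headers. They also deposited a table of log2 values, which differed from the log2 processed signal by 1 constant per array (100% of probes within 0.001), with no centring of genes. Its column medians were -4.175 (ventricular) and -4.246 (atrial) for postmortem CMPs, -4.129 (ventricular) and -4.208 (atrial) for living CMPs, -3.604 for adult heart, and -3.870 (transgenic) and -4.030 (wild type) for fetal hearts.

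Spots of a probe were averaged, 11 of 55681 probes with outlier flags were left out, and log2 processed signals were set against each array's 75th percentile. The probe of highest mean stood for a gene. The test was limma 3.58.1 (R 4.3.3; lmFit and eBayes with a trend), two-sided, in 1 fit of 7 arrays with terms for group and CMP chamber (an interaction term for the chamber dependence), with Benjamini-Hochberg adjustment over all genes tested. Genes entered a test where at least 1 side had the probe marked well above background on all its arrays. With a probe not well above background in a whole group, "at least N-fold" sets the brighter mean against the mean, per dim array, of whichever is higher, its own signal or that of the dimmest probe marked well above background. The number of arrays limits precision. The fit was tested on simulated data. Values per array are given for every member called in a comparison and for the 6 tested members with the largest difference in each. Members and lists were chosen with earlier results of these data known. Promoter sequences are from RefSeq. Of the 47 member probes, 41 had an accession listed in the gene table of RefSeq, all under the same symbol.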

Additional observations from a re-analysis of the deposited data

Results flagged for a closer look

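On the postmortem atrial array 3 of 29 ligands checked over the 4 CMP arrays stood apart from the other 3 arrays by Dixon's criterion, as did 4.97% of all 21825 genes checked in the same way. Ccl22 had -1.88 and Cxcl13 -1.03 there, both not well above background on the other CMP arrays, and Ccl5 had -1.40 against 1.12 to 1.19 on the others. On the living ventricular array 1 ligand stood apart, Ccl4 at -2.93, which was not well above background on the other CMP arrays; 1.47% of all genes did so on that array. Chance meets the criterion for about 1 gene in 20 over the 4 CMP arrays, whichever of them stands apart. The shares above are each of 1 array, so that rate does not apply to them. On the postmortem ventricular array 1.75% of all genes stood apart, and on the living atrial array 1.22%.

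For 8 ligands an interaction term was past the threshold for how postmortem and living CMPs differed between the chambers (ventricular minus atrial). The values were 8.22 for Cxcl5, 3.79 for Ccl7, 3.74 for Cxcl1, 3.20 for Ccl19, 2.93 for Ccl2, 2.65 for Ccl5, 2.25 for Cxcl14 and -1.76 for Cx3cl1. Each culture is 1 array and the error comes from the 2 fetal hearts, so these values carry no spread between cultures. None of the 8 was past the threshold after quantile normalization.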

How the results depend on the processing

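Alternatives covered the background correction, the normalization, the deposited table, the filter on dim probes, the choice of probe, the spread model, the arrays fitted and the covariates. Added after seeing the data were a test of every probe and the heart comparisons without both postmortem arrays. Of 984 values of named ligands under alternatives, 866 kept their direction and side of the threshold, 80 lost a call, 37 gained one and 1 reversed (Ccl25 between adult and fetal heart, 0.04 with the mean of its probes). The count of ligands called between postmortem and living CMPs became 1 with normexp, and without 1 CMP array 7 to 17 (2.05% to 8.88% of all genes). Between the chambers it became 1 with normexp, and without 1 CMP array 2 to 16 (2.15% to 8.99% of all genes). Without a CMP array the spread comes from the fetal pair alone and the lone culture is assumed to vary like it. Without either fetal array both counts stayed 0. Against fetal heart 11 ligands were called with the stricter filter, under which fewer were tested. For the chamber dependence the count was 0 with quantile normalization, 5 with the percentile over detected probes and 3 without a trend; the cause was not tested. The median over the ligands tested moved between postmortem and living CMPs, to between -2.54 and -1.07 over the alternatives. Over all genes, 20 calls between postmortem and living CMPs became 47 with normexp, 53 without a filter, 2 without a chamber term and 0 without a trend or with the CMP arrays alone. Taking the percentile over detected probes moved the median of all genes against fetal heart by -0.17, to -0.18. Slide and scan time could not be a block, since all arrays share 1 of each. Leaving out an array gave no fit of the interaction. The chamber term of the fit pairs the CMP arrays by chamber, with 1 array for each source state and chamber. No pairing by animal was possible because the labels do not say which arrays share animals.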
